A study of Mus musculus with 9 samples.

Results

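Hox genes encode homeodomain transcription factors that give cells of the embryo their position along the head to tail axis and along the limb. The members described here are all 37 genes whose symbol consists of Hox, a cluster letter (a to d) and a number, out of 19937 named genes measured on the arrays. Each had 1 probe set that carried its symbol alone, and within the family no gene was chosen by its expression value. A further probe set, shared by Hoxb7 and Hoxb8, was not used. The Hoxa cluster contributed 10 genes and the Hoxb, Hoxc and Hoxd clusters 9 each. By paralog number, 11 were anterior (1 to 4), 10 central (5 to 8) and 16 posterior (9 to 13).

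MC3T3-E1 is a mouse preosteoblast line from calvaria, the flat bones of the skull roof, and the cells used were of its subclone 4. All 3 groups were infected with lentivirus and sorted for green fluorescent protein, and each held 3 biological replicates with 1 array per replicate. Scr day 0 cells carried a scrambled short hairpin RNA (shRNA) as control and were proliferating in medium without ascorbic acid. Scr day 9 cells carried the same scrambled hairpin and had been kept for 9 days in osteogenic medium with ascorbic acid and beta-glycerophosphate, and shRunx2 day 9 cells were cultured likewise but carried a hairpin against Runx2, a transcription factor required for osteoblast formation. Day, confluency and medium changed together between day 0 and day 9 and cannot be told apart. There was no shRunx2 sample at day 0, and the arrays' values for Runx2 itself are not analysed here, so the depletion was not checked on these arrays. Fewer cells expressing a gene and less RNA per cell cannot be told apart in such bulk samples.

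Mammalian Hox genes lie in 4 clusters, and genes nearer the 3′ end of a cluster (low paralog numbers) are switched on earlier and further forward in the embryo. The cranial neural crest that builds the face and the frontal bone lacks Hox expression, while the crest of more posterior branchial arches, the trunk skeleton and the limbs carry characteristic Hox codes. Hox proteins bind DNA together with TALE homeodomain cofactors of the Pbx, Meis and Pknox families, and Polycomb and trithorax group proteins keep the clusters silent or active.

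Across the 9 arrays, the median of all 19937 genes lay between 8.79 and 8.85 on the log2 scale of RMA (robust multi-array average, the authors' normalization). Arrays of a group correlated at 0.9981 or more across genes, and no array of one group reached more than 0.9969 with an array of another. All 8 measured osteoblast lineage markers were above background (defined below) in at least 1 group, led by Sparc (log2 level of 14.1 at day 0) and Col1a1 (13.5). Of the 8, 5 rose between day 0 and day 9 in Scr cells, beside 14.5% of all genes. With the Runx2 hairpin 4 fell, beside 4.66% of all genes. Of the markers of other cell types, 3 of 7 macrophage and leukocyte genes (Cd68, Cd14 and Tyrobp), 2 of 5 endothelial genes (Cdh5 and Tie1) and 1 of 4 adipocyte genes (Plin1, 8.71 at day 0) were above background in at least 1 group. Ptprc (7.25 at day 0), Adgre1 (7.04), Itgam (7.18), Pecam1 (7.48), Adipoq (6.55) and Fabp4 (6.48) were above it in none. The same rule put 4 of 6 chondrocyte genes and 2 of 5 skeletal muscle genes above background in all 3 groups, including Col2a1 (9.98) and Myod1 (8.80). Of all 19937 genes, 64% were above background in at least 1 group and 12029 in all 3 groups.

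The table holds no detection calls. A gene was therefore called above background in a group when its log2 value on each of the 3 arrays exceeded the 95th percentile, on that array, of 1015 olfactory receptor genes, a family that most cells outside the nose do not transcribe. This limit lay between 8.12 and 8.26 on the 9 arrays. By this rule 13 of the 37 Hox genes were above background in Scr day 0 cells, 12 in Scr day 9 cells and 15 in shRunx2 day 9 cells, beside 62.3%, 61.9% and 62.5% of all genes. In all, 15 Hox genes (40.5%) were above background in at least 1 group, against 64% of all genes, and 11 were above it in all 3 groups. The 15 were made up of 6 of 10 Hoxa, 5 of 9 Hoxb, 2 of 9 Hoxc and 2 of 9 Hoxd genes, or of 5 of 11 anterior, 4 of 10 central and 6 of 16 posterior genes.

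**Figure D1:**
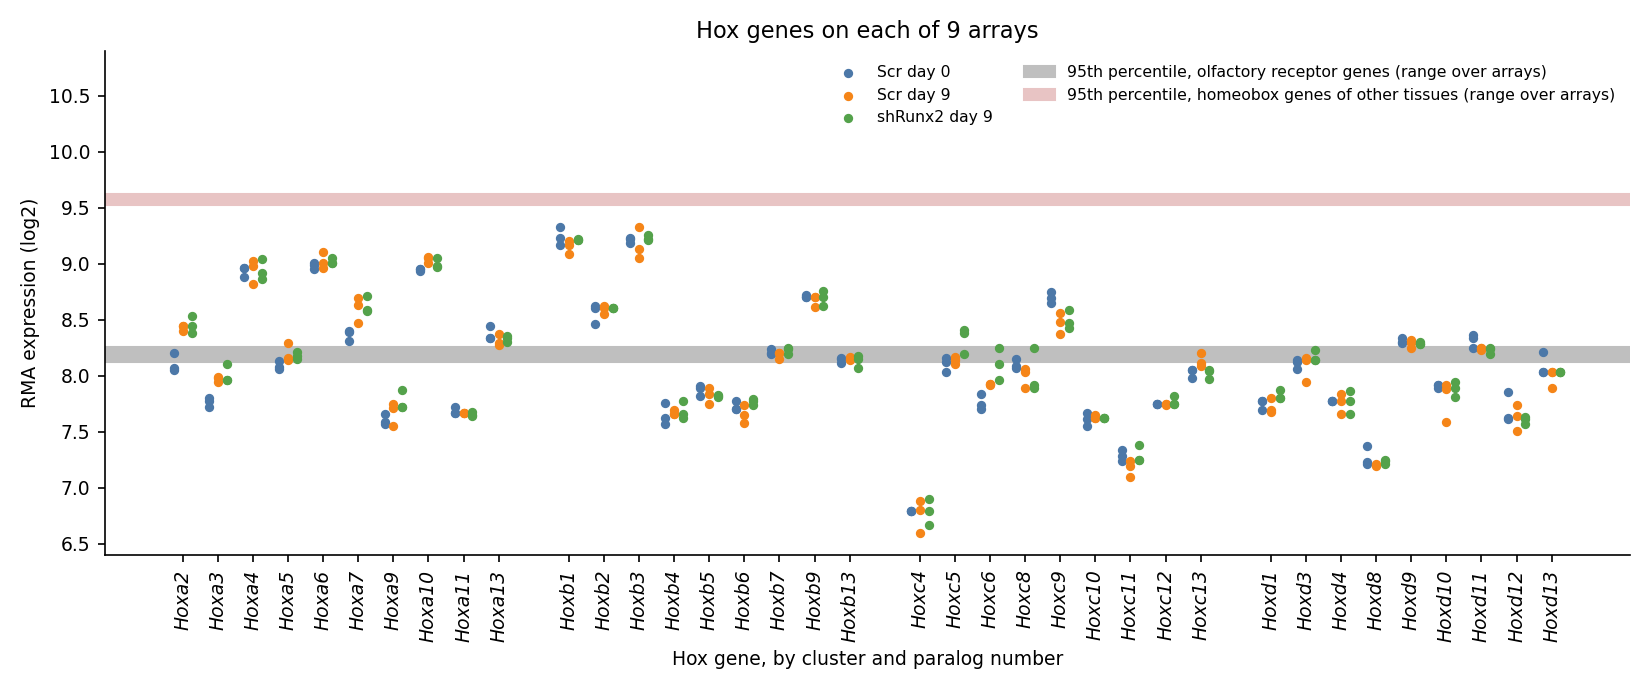
Log2 RMA expression (vertical axis) of each of the 37 Hox genes (horizontal axis, by cluster and paralog number) on each of 9 arrays, with 3 arrays per group in each colour. The grey band spans the 95th percentile of olfactory receptor genes over the arrays (8.12 to 8.26) and the pink band that of homeobox genes of other tissues (9.52 to 9.62). No Hox gene reaches the pink band.

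Hox levels formed a narrow band. The mean over 9 arrays ran from 6.78 for Hoxc4 to 9.21 for Hoxb3 with a median of 8.06, while the 1015 olfactory receptor genes had a median of 6.36 and all genes one of 8.83. Most Hox genes thus lay above the bulk of the olfactory receptor genes and below the median gene. A set of 46 homeobox genes of brain, gut, heart and other tissues, added after the data were seen, had a median of 8.53 and a 95th percentile of 9.57, and 32 of the 46 also passed the olfactory limit in at least 1 group. Measured against the 95th percentile of that set on each array, 0 of the 37 Hox genes were above background. The rule against olfactory receptor genes is therefore a description of where a probe set lies and not a detection of transcript, and levels of different probe sets are no order of abundance.

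**Figure D2:**
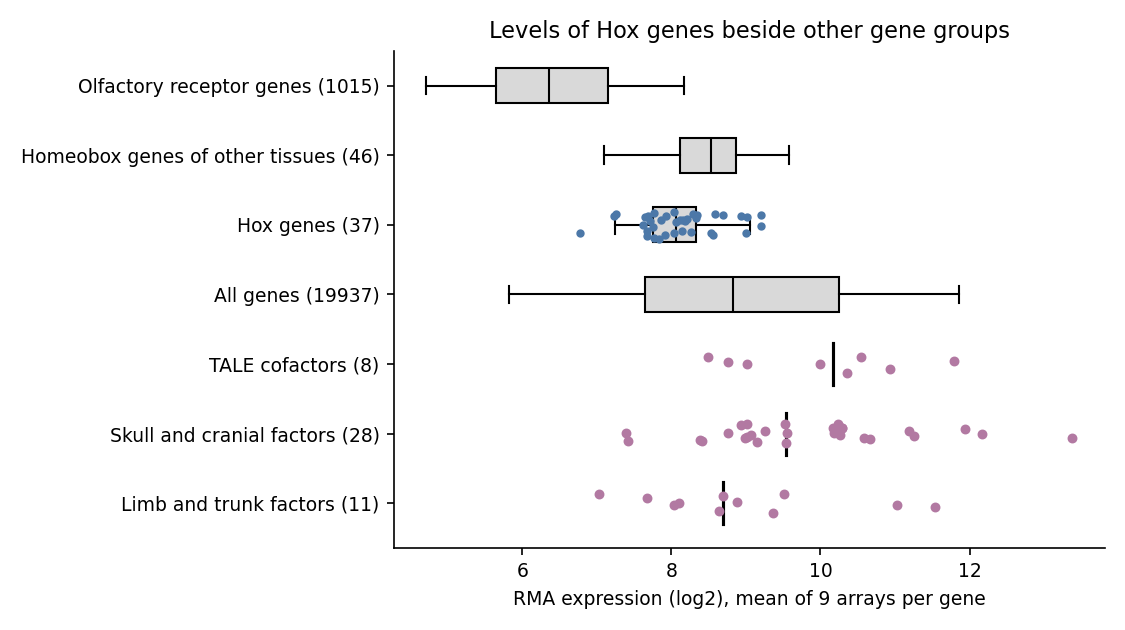
Log2 RMA expression (horizontal axis, mean of 9 arrays per gene) of gene groups, with the number of genes in brackets. Boxes span the quartiles with a line at the median, whiskers the 5th to 95th percentiles, points are single genes, and short lines the medians of the small lists. The 37 Hox genes (median 8.06) lie between olfactory receptor genes (6.36) and homeobox genes of other tissues (8.53).

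Among the anterior genes, Hoxb3 and Hoxb1 had the highest values of any member. Hoxb3, a hindbrain and branchial arch gene, lay between 9.05 and 9.33 on the 9 arrays, and Hoxb1, which specifies the fourth rhombomere of the hindbrain, lay between 9.09 and 9.33. Hoxa4, which takes part in patterning cervical vertebrae, ranged from 8.82 to 9.04. Hoxb2, a hindbrain gene, ranged from 8.46 to 8.62. These 4 genes stayed above background in all groups, and the values of Scr day 0 and Scr day 9 cells overlapped for each of them.

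Central and posterior genes were present in the same range. Hoxa6 lay between 8.95 and 9.10 and Hoxb7 between 8.15 and 8.25. Hoxb7 thus sat on the limit itself and was above it in Scr day 0 and shRunx2 day 9 cells but not in Scr day 9 cells. The unused probe set shared by Hoxb7 and Hoxb8 lay between 6.99 and 7.29, below the limit on every array. Of the posterior genes, Hoxa10, which patterns lumbar vertebrae and the uterus, lay between 8.93 and 9.06. Hoxb9, a thoracic gene, lay between 8.61 and 8.76. Hoxa13, a gene of the hand, the foot and the genital tubercle, ranged from 8.27 to 8.44 and Hoxd9, expressed in trunk and limb, from 8.25 to 8.34. Hoxd11, which patterns the forearm, ranged from 8.19 to 8.36, and like Hoxb7 it was above the limit in Scr day 0 and shRunx2 day 9 cells only. The mean change between day 0 and day 9 in Scr cells was -0.03 for Hoxb7 (adjusted p = 0.642) and -0.07 for Hoxd11 (adjusted p = 0.205), so neither crossing of the limit was matched by a change that passed the test.

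The other 22 Hox genes were above background in no group. They were Hoxa3, Hoxa5, Hoxa9, Hoxa11, Hoxb4, Hoxb5, Hoxb6, Hoxb13, Hoxc4, Hoxc6, Hoxc8, Hoxc10, Hoxc11, Hoxc12, Hoxc13, Hoxd1, Hoxd3, Hoxd4, Hoxd8, Hoxd10, Hoxd12 and Hoxd13. Their values ran from 6.60 to 8.29, and the lowest were those of Hoxc4, a gene of the neck and upper trunk, at 6.60 to 6.90. In 22 of the 37 Hox genes (59.5%) the deposited value was identical on at least 2 arrays, as it was in 9891 of all 19937 genes (49.6%). Hoxd13 had the same value on 7 of 9 arrays, and Hoxa11, Hoxc12 and Hoxd4 on 5.

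The comparison of Scr day 9 with Scr day 0 cells asked how Hox genes differ between proliferating cells and cells kept for 9 days in osteogenic medium. Hoxa2, Hoxa3 and Hoxa7 rose and Hoxc9 fell, all by at most 1.25-fold. These were 4 of 37 members (10.8%) at an adjusted p under 0.05, beside 31.6% of all genes (14.5% higher and 17.1% lower). Fewer were called in the 2 reference sets, 2.36% of olfactory receptor genes and 0 of the 46 homeobox genes of other tissues. No Hox gene changed by 1.5-fold or more, which 5.14% of all genes did. The 95% intervals of all 37 log2 changes, each for 1 gene, lay between -0.35 and 0.43, so that the widest bound on array signal was 1.35-fold. The median change was -0.02, as against -0.02 for all genes, and 9 members had an unadjusted p under 0.05, beside 38.6% of all genes.

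The 3 genes that rose all belong to the Hoxa cluster. Promoters were sought for all 4 genes that passed, and those of these 3 are shown, because Hoxc9 had no entry among the RefSeq promoters. In paralog order Hoxa2 and Hoxa3 are neighbours, while Hoxa4, Hoxa5 and Hoxa6, which did not pass, stand between them and Hoxa7. The Hoxa3 unit listed by RefSeq is 44009 bases long, however. The Hoxa3 promoter shown therefore lies nearer to that of Hoxa7 than to that of Hoxa2. The sequences run from 250 bases before to 50 after the start of transcription, 5′ to 3′ on the minus strand, as given by RefSeq for GRCm38.p6. Capitals mark a match to any of 4 motifs searched on both strands: TGTGGT (the core bound by Runx proteins), TGATNNAT (a joint Pbx and Hox element), AGGTCA (an element bound by nuclear receptors) and TATAAA (the TATA box). They lie at chr6:52164782-52165081 (Hoxa2), chr6:52213018-52213317 (Hoxa3) and chr6:52218524-52218823 (Hoxa7).
Hoxa2: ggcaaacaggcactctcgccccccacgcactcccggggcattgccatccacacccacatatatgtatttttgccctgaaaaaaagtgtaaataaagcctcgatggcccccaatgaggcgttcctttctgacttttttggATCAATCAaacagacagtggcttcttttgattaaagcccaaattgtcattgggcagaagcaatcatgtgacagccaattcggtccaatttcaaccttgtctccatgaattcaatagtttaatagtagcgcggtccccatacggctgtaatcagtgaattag
Hoxa3: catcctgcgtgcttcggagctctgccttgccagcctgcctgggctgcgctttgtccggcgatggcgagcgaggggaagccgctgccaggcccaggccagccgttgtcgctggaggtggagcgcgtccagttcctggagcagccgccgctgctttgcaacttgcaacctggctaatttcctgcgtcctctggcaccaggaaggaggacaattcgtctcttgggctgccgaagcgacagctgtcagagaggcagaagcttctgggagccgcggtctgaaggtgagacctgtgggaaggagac
Hoxa7: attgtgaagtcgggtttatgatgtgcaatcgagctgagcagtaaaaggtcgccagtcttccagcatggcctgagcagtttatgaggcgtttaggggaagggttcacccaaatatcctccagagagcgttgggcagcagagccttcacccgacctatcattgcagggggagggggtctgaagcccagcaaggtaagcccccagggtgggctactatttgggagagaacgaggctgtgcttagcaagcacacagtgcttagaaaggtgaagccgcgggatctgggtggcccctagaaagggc
The Hoxa2 window held 1 match, to TGATNNAT, whose first base is at position -111 from the start, and it overlapped no other match. The Hoxa3 and Hoxa7 windows held none of the 4. Of 32851 promoters of this length in the table, 16.8% held TGTGGT, 8.8% TGATNNAT, 16.3% AGGTCA and 13.6% TATAAA. The 23 promoters listed for 21 members held them in 1, 3, 7 and 3 cases. The G and C content was 45.7% for Hoxa2, 64.0% for Hoxa3 and 55.7% for Hoxa7, with a median of 52.7% over all promoters and 58.0% over those of Hox genes.

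Hoxa2, which specifies the second branchial arch and keeps its crest cells from forming the skeleton of the first, had log2 values of 8.20, 8.05 and 8.07 on the Scr day 0 arrays. On the Scr day 9 arrays it had 8.44, 8.44 and 8.40, and on the shRunx2 day 9 arrays 8.44, 8.53 and 8.38. All 6 day 9 arrays lay above all 3 day 0 arrays. The rise in Scr cells was 0.32 ± 0.051 (SE), or 1.25-fold, with an adjusted p of 0.000414. Hoxa2 exceeded the background limit on 1 of 3 arrays at day 0 and on all arrays of both day 9 groups.

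Hoxa3, which is required for the thymus and parathyroid glands, had values of 7.72, 7.80 and 7.77 at day 0, 7.94, 7.98 and 7.99 in Scr day 9 cells and 7.96, 7.96 and 8.10 in shRunx2 day 9 cells. The groups of day 0 and day 9 did not overlap, but every value lay below the background limit. The rise in Scr cells was 0.21 ± 0.045 (SE; adjusted p = 0.00356).

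Hoxa7, which acts in the thoracic region, had values of 8.31, 8.39 and 8.40 at day 0, 8.47, 8.63 and 8.69 in Scr day 9 cells and 8.58, 8.71 and 8.59 in shRunx2 day 9 cells. Every day 9 array was again above every day 0 array, and the gene was above background in all groups. The rise in Scr cells was 0.23 ± 0.060 (SE; adjusted p = 0.0114). The adjusted p rose to 0.0508 when Scr day 0 replicate 1 was left out and to 0.0519 when Scr day 9 replicate 3 was.

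Hoxc9, a gene of the thoracic vertebrae and motor neurons, had values of 8.69, 8.65 and 8.75 at day 0, 8.48, 8.37 and 8.56 in Scr day 9 cells and 8.47, 8.59 and 8.43 in shRunx2 day 9 cells. All day 9 values were below all day 0 values, and all 9 were above background. It fell by 0.23 on the log2 scale in Scr cells (-0.23 ± 0.056, SE; adjusted p = 0.00817). Of the 37 genes, Hoxc9 alone fell in this comparison.

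**Figure D3:**
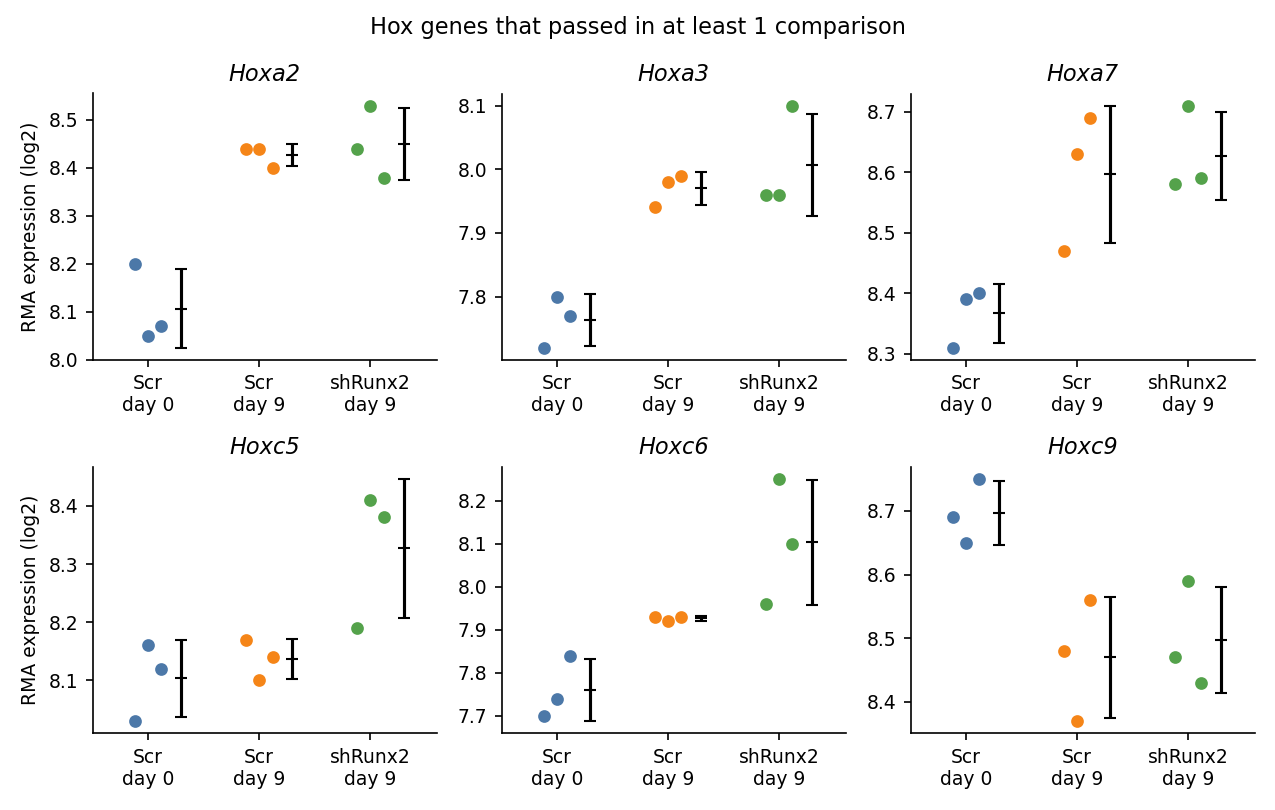
Log2 RMA expression (vertical axes, each with its own range) of the 6 Hox genes that passed in at least 1 comparison, in 3 groups of 3 arrays (points), with the mean and SD beside them. Hoxa2, Hoxa3 and Hoxa7 are higher and Hoxc9 lower on every day 9 array than on every Scr day 0 array.

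By cluster, 3 of 10 Hoxa genes passed and rose, a share near the 31.6% called among all genes (14.5% higher), and the remaining 7 did not pass, with a median change of 0.08 over the 10. None of the 9 Hoxb genes passed (median -0.04). In the Hoxc cluster 1 of 9 fell and 8 did not pass (median 0.00), and in the Hoxd cluster none of 9 passed, with negative estimates for all 9 (median -0.07, range -0.11 to -0.01). Estimates were also negative for 34 of the 46 homeobox genes of other tissues, 569 of 1015 olfactory receptor genes and 11373 of all 19937 genes. By paralog number, 2 of 11 anterior and 1 of 10 central genes rose, and 1 of 16 posterior genes fell. The 3 arrays of each group did not overlap for 7 members that were higher at day 9 and 3 that were lower, beside 40.2% of all genes. Without overlap and without passing, Hoxc6 had values of 7.70, 7.74 and 7.84 at day 0 and 7.93, 7.92 and 7.93 at day 9 (0.17, adjusted p = 0.0748).

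The comparison of shRunx2 day 9 with Scr day 9 cells asked which Hox genes depend on Runx2 in differentiating cells. None of the 37 passed an adjusted p of 0.05 in limma, beside 7.39% of all genes (2.73% higher and 4.66% lower, and 0.592% by at least 1.5-fold), and 5 had an unadjusted p under 0.05, beside 19.6% of all genes. Estimates ran from -0.11 for Hoxc13 to 0.19 for Hoxc5 with a median of 0.02, and 26 of 37 were positive, as were 617 of 1015 olfactory receptor genes, 27 of the 46 homeobox genes of other tissues and 9535 of all 19937 genes. The 95% intervals of the 37, each for 1 gene, lay between -0.21 and 0.32, so that the widest bound was 1.25-fold. These are bounds on array signal and not on RNA, since 22 of the 37 were above background in no group and RMA compresses changes there. The 4 genes that moved between day 0 and day 9 had small estimates here: 0.02 ± 0.051 (SE) for Hoxa2, 0.04 ± 0.045 for Hoxa3, 0.03 ± 0.060 for Hoxa7 and 0.03 ± 0.056 for Hoxc9. Arrays of the groups did not overlap for 5 members, Hoxb1, Hoxc5, Hoxc6 and Hoxc11 being higher and Hoxc13 lower in shRunx2 cells, beside 23.7% of all genes.

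**Figure D4:**
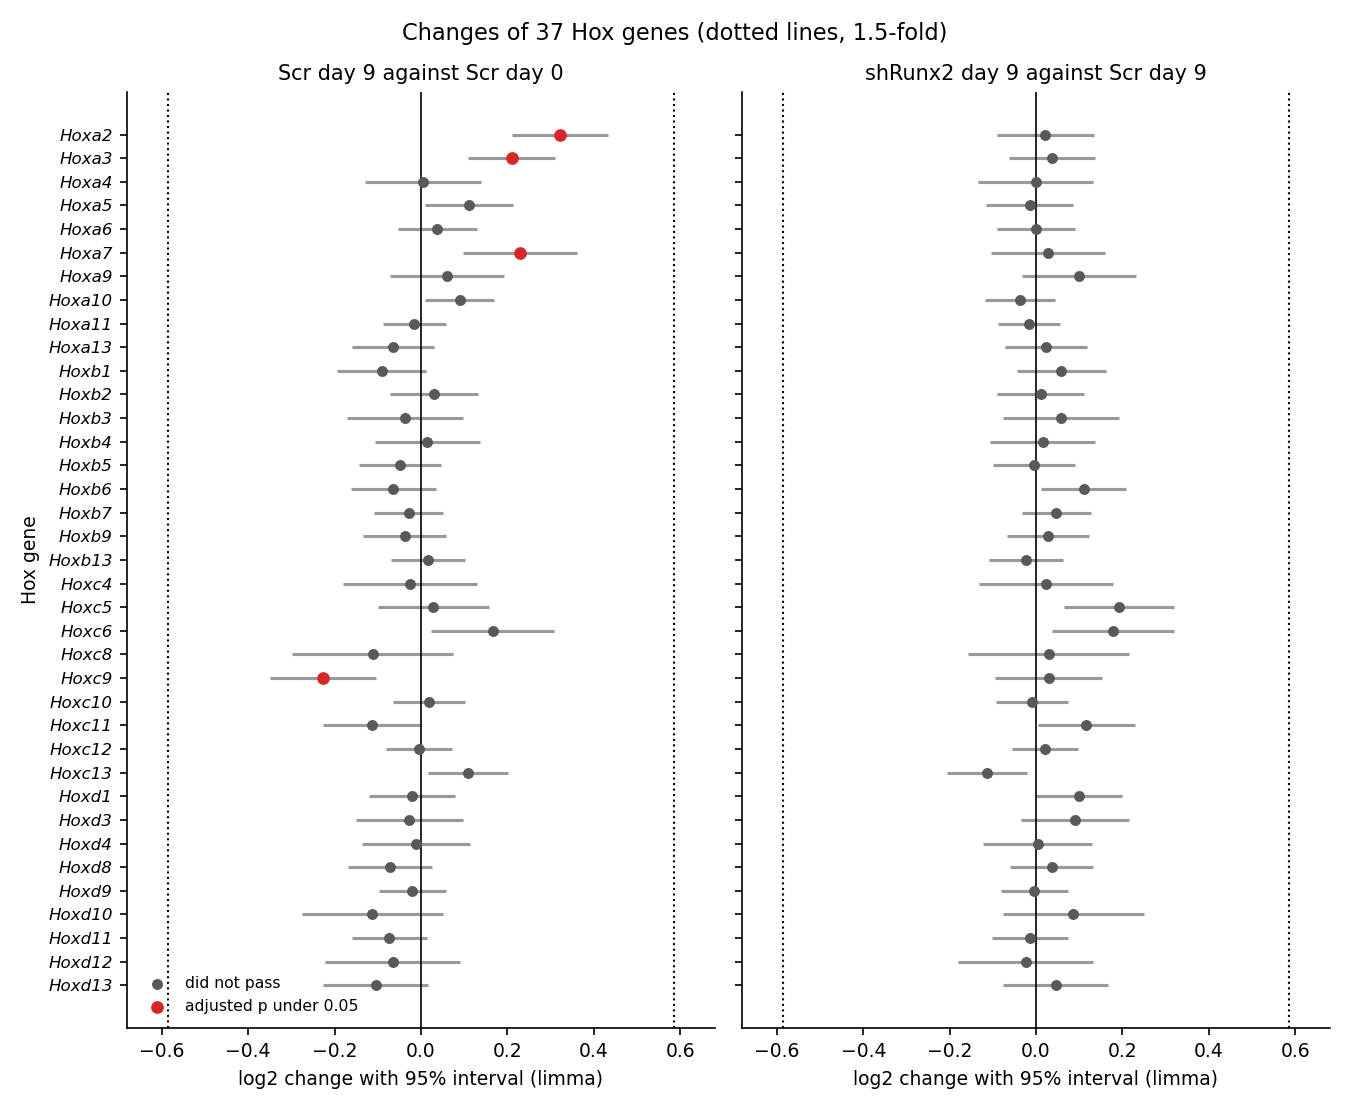
Log2 change (horizontal axes, limma) of the 37 Hox genes (vertical axis) for Scr day 9 against Scr day 0 (left) and shRunx2 day 9 against Scr day 9 (right), with 95% intervals as bars and genes at an adjusted p under 0.05 in red. The red points on the left are Hoxa2, Hoxa3, Hoxa7 and Hoxc9, none is red on the right, and all bars stay inside the dotted lines at 1.5-fold.

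Hoxc5 and Hoxc6, neighbours that act around the border of neck and thorax, came nearest to a difference. Hoxc13 followed closely and went the other way (-0.11, limma adjusted p = 0.156). Hoxc5 had values of 8.03, 8.16 and 8.12 on the Scr day 0 arrays, 8.17, 8.10 and 8.14 on the Scr day 9 arrays and 8.19, 8.41 and 8.38 on the shRunx2 arrays. It was above background in shRunx2 cells only. The difference between the day 9 groups was 0.19 ± 0.058 (SE; adjusted p = 0.0778) for Hoxc5 and 0.18 ± 0.064 (adjusted p = 0.141) for Hoxc6, whose shRunx2 arrays gave 7.96, 8.25 and 8.10. In both genes shRunx2 replicate 1 was the lowest of its group. Without it, both passed, with 0.26 (adjusted p = 0.0138) for Hoxc5 and 0.25 (adjusted p = 0.0362) for Hoxc6. Neither passed when any other single array was left out. Over all settings tried, the limma adjusted p reached 0.234 for Hoxc5 and 0.362 for Hoxc6.

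The comparison of shRunx2 day 9 with Scr day 0 cells shares its arrays with the other two and is given beside them. In it, 6 of 37 Hox genes passed (16.2%), beside 34.2% of all genes (13.8% higher and 20.4% lower), and none reached 1.5-fold, as 5.7% of all genes did. An unadjusted p under 0.05 was found for 8 members and 40.9% of all genes, and arrays that did not overlap for 10 members and 42.3% of all genes. Hoxa2 was higher by 0.34 (adjusted p = 0.000219), Hoxa3 by 0.25 (adjusted p = 0.00106) and Hoxa7 by 0.26 (adjusted p = 0.00529). Hoxc9 fell by 0.20 (adjusted p = 0.0166). Hoxc5 and Hoxc6 also rose, by 0.22 (adjusted p = 0.0109) and 0.34 (adjusted p = 0.0012). The adjusted p of Hoxc5 rose to 0.0504 when Scr day 0 replicate 1 was left out and to 0.0509 for shRunx2 replicate 2. That of Hoxc9 rose to 0.0646 when Scr day 0 replicate 3 was left out, and to 0.0602 and 0.0722 for shRunx2 replicates 1 and 3.

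The TALE cofactors with which Hox proteins bind DNA were all above background, in 8 of 8 measured genes. Between day 0 and day 9 in Scr cells 2 rose, 1 fell and 5 did not pass, so that 37.5% were called, beside 31.6% of all genes. Meis2 had values of 10.40, 10.31 and 10.29 at day 0, 11.45, 11.37 and 11.34 in Scr day 9 cells and 11.09, 11.09 and 11.10 in shRunx2 day 9 cells. The 3 groups did not overlap, and Meis2 rose by 1.05 ± 0.042 (SE), or 2.08-fold, between day 0 and day 9 in Scr cells (adjusted p = 6.15e-09). It was lower by 0.29 with the Runx2 hairpin (-0.29, adjusted p = 0.00151). Pbx3 rose from 11.43 ± 0.075 to 11.95 ± 0.038 (SD, n = 3; change of 0.52, limma adjusted p = 4.14e-06) and stood at 11.98 ± 0.044 in shRunx2 cells. Pknox2 fell by 0.19 (adjusted p = 0.0136). Meis2 was the only one of the 8 to pass in the comparison of the day 9 groups (12.5%, beside 7.39% of all genes).

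Homeobox and other patterning factors of the skull and cranial neural crest were measured for 28 genes, of which 26 were above background in all groups and Otx2 and Zic1 in none. Between day 0 and day 9 in Scr cells 6 rose, 11 fell and 11 did not pass, so that 60.7% were called, beside 31.6% of all genes (14.5% higher and 17.1% lower). The smallest adjusted p values among the falls were those of Msx2, which controls growth of the skull vault (from 9.83 ± 0.020 to 8.55 ± 0.045, SD, n = 3; -1.28, limma adjusted p = 2.65e-09), and Dlx1 (-1.09, adjusted p = 1.32e-08). Foxc2 (-1.21, adjusted p = 1.04e-07) and Dlx2 (-1.12, adjusted p = 1.33e-07) followed. Prrx1, a factor of craniofacial and limb mesenchyme, had a mean of 13.15 at day 0, of 13.43 in Scr day 9 cells and of 13.57 in shRunx2 cells. With the Runx2 hairpin 1 of the 28 rose, Prrx1 (0.14, adjusted p = 0.0248), and 1 fell, Emx2 (-0.29, adjusted p = 0.0107), a gene of the forebrain and the urogenital system. That was 7.14% called, near the 7.39% of all genes.

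**Figure D5:**
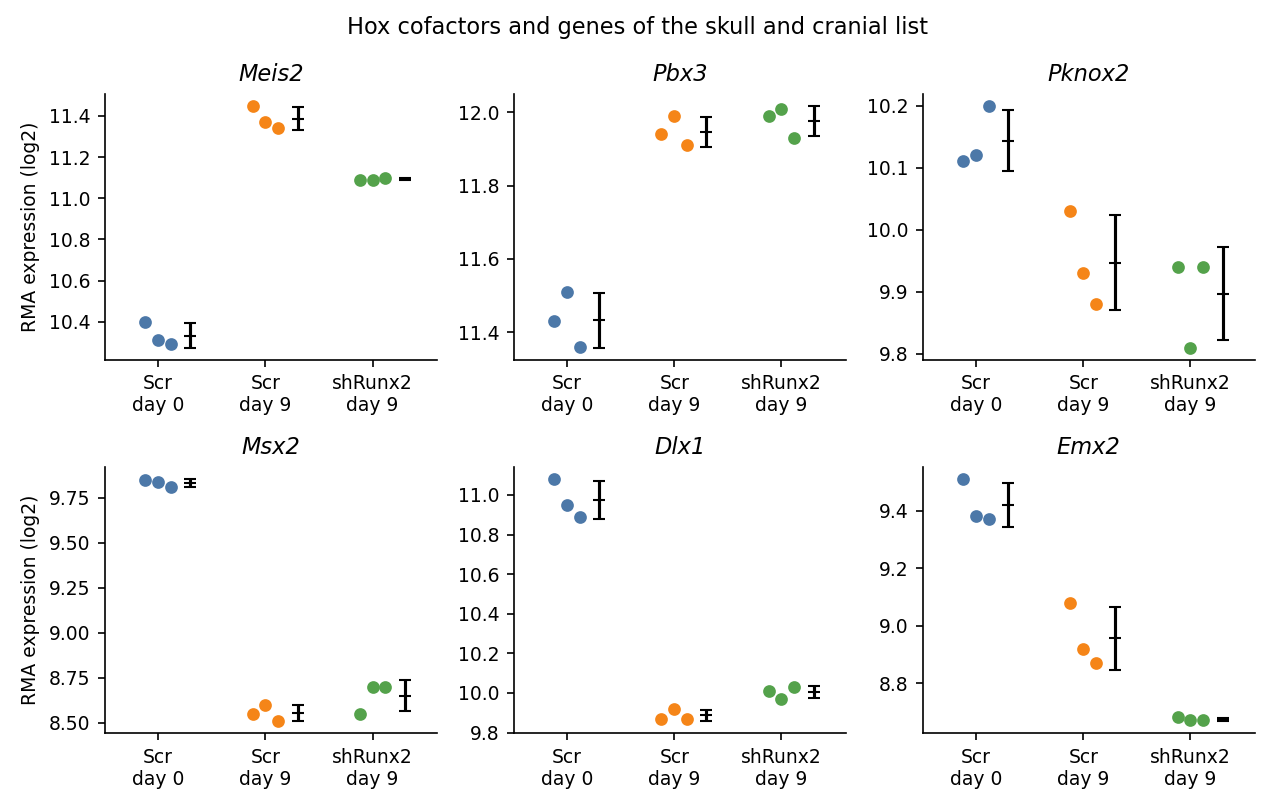
Log2 RMA expression (vertical axes, each with its own range) of 3 TALE cofactors (Meis2, Pbx3, Pknox2) and 3 genes of the skull and cranial list (Msx2, Dlx1, Emx2) in 3 groups of 3 arrays (points), with the mean and SD beside them. Meis2 is lowest at day 0 and highest in Scr day 9 cells, while Emx2 is lowest in shRunx2 day 9 cells.

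Of 11 limb and trunk positional factors, 7 were above background in all groups and the others in none. That share (63.6%) was near the 64% of all genes and the 69.6% of the 46 homeobox genes of other tissues above it in at least 1 group. Tbx15, a T-box gene of limb and trunk mesenchyme, fell by 0.37 between day 0 and day 9 in Scr cells (adjusted p = 9.35e-06). The other 10 did not pass (9.09% called, beside 31.6% of all genes). With the Runx2 hairpin Tbx18, a T-box gene of the somites, rose by 0.39 (adjusted p = 0.00165), and the other 10 did not pass (9.09% called, near the 7.39% of all genes). Tbx5, which marks the forelimb, was below background with a mean of 6.95 at day 0.

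Among 21 measured chromatin and upstream regulators of the Hox clusters, 4 rose and 7 fell between day 0 and day 9, and 10 did not pass (52.4% called, beside 31.6% of all genes). The Polycomb genes Cbx7 (0.28, adjusted p = 0.000221) and Bmi1 (0.35, adjusted p = 0.000454) rose. The retinoic acid receptor gene Rara (-0.33, adjusted p = 0.000288) and Kdm6b (-0.28, adjusted p = 0.000337), which encodes a demethylase of the Polycomb mark, fell. With the Runx2 hairpin 2 of 21 fell, the Polycomb gene Phc1 (-0.18, adjusted p = 0.0434) and the retinoic acid receptor gene Rarg (-0.15, adjusted p = 0.0443). That was 9.52% called, near the 7.39% of all genes.

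Of 9 measured transcripts encoded within the Hox clusters, only Mir615 was above background, at 9.33 to 9.53 on the 9 arrays. None passed in either of the first comparisons, in which 31.6% and 7.39% of all genes did. Mir196a-2 was higher by 0.18 in shRunx2 day 9 than in Scr day 0 cells (adjusted p = 0.0185), at values below background. The array measures the region of the precursor and not the mature microRNA. The long noncoding transcripts Hottip (7.54 at day 0), Hoxaas2 (7.76) and Hoxd3os1 (8.08) lay below background in all groups.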

How the data were processed

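RNA from MC3T3-E1 cells was measured on Affymetrix Mouse Gene 1.0 ST arrays, 9 in all. The authors deposited log2 expression values made with RMA, which corrects background, quantile normalizes the arrays and summarizes probe sets by median polish, so changes near background are compressed. Microarrays give no read depth, and the precision is limited by the number of arrays. Of 34760 probe sets, 21640 carried 1 gene symbol in the platform annotation, 1321 several and 11799 none. For the 954 genes with several probe sets, that of highest mean was kept, which left 19937 genes. All 9 arrays entered 1 group-means model in limma 3.58.1 (R 4.3.3; lmFit and eBayes, two-sided) with Benjamini-Hochberg adjustment over all genes, and a gene was called at an adjusted p under 0.05. The step was tested on simulated data. Groups and replicate numbers came from the sample labels. Promoters came from RefSeq (GRCm38.p6), and all 37 symbols were matched in its gene table. The members were all genes of 1 symbol pattern, but this family, the lists and the tests were chosen with earlier results of these data known. Named genes were all Hox genes above background or called, and from each other list up to 4 called members of smallest adjusted p in each of the first comparisons. A gene list's level or marker named beyond these was chosen after its values were seen. The alternatives tried were other background references, filters, normalizations, probe set rules, variance models, a replicate block and leaving out each array. Some genes of the lists are not reported here.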

Additional observations from a re-analysis of the deposited data

How the results depend on the processing

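The number of Hox genes above background in at least 1 group depended on the reference. It was 34 with the 95th percentile of 167 vomeronasal receptor genes, 24 with the 90th and 5 with the 99th percentile of olfactory receptor genes, 5 with the median of all genes, and 0 with the 46 homeobox genes of other tissues, which were chosen after seeing the data. It was 15 to 16 under the other settings, leaving out each array included. The number of Hox genes called between Scr day 9 and Scr day 0 was 8 with array weights, which added Hoxa10, Hoxc6, Hoxc11 and Hoxc13, and 0 among genes above the median level, where 5 Hox genes were left to test. It was 3 to 5 when each array was left out. Between shRunx2 and Scr cells at day 9 it was 4 with array weights (Hoxb6, Hoxc5, Hoxc11 and Hoxc13), 1 among genes above background (Hoxc5, which entered that set through the shRunx2 group alone, where it is higher) and 0 to 2 when each array was left out. Between shRunx2 day 9 and Scr day 0 it was 0 among genes above the median level and 5 to 7 when each array was left out. No Hox gene named as changed reversed its direction under the settings run. Arrays of equal replicate number shared little: the correlation of their deviations from the group means was 0.08 to 0.29 between the Scr groups, -0.04 to 0.13 between Scr day 0 and shRunx2, and -0.11 to 0.10 between the day 9 groups. With the replicate number as a block, 4, 0 and 7 Hox genes were called in the 3 comparisons. Where no cause is named above, the cause was not tested.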
